A study of Homo sapiens with 151 samples.

Results

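EP300, KAT6A and ZZZ3 are 3 chromatin proteins tied to histone acetylation, and their peak lists were chosen by sample title: 3 of the 127 lists of the series, with 17599, 11106 and 9801 peaks. All were made in HepG2, a line grown from a human hepatocellular carcinoma. In each case the endogenous gene was given a FLAG epitope by genome editing (CETCh-seq), so that the protein was expressed from its own promoter, and the tagged protein was pulled down with the antibody Anti-FLAG M2 from formaldehyde-fixed cells. Every DNA-associated protein (DAP) of the series has 1 list, and no list has a replicate, so no comparison of DAPs has a replicate check. Peaks were called against an input library made without antibody. EP300 and KAT6A share 1 input library, which also served 14 further lists, and ZZZ3 has another, which served 10 further lists. KAT6A is a preferred data set. EP300 and ZZZ3 are 2 of the 6 non-preferred ones, a status that the study's methods give to a local list whenever the ENCODE portal holds a data set for the same DAP. The 124 other lists serve as the reference.

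EP300 (p300) is a lysine acetyltransferase that transcription factors bring to enhancers, where it acetylates histone tails, and it is widely used as a mark of active enhancers. KAT6A (MOZ) is the catalytic subunit of a complex with BRPF1 and ING5 that acetylates histone H3 and has been studied most at developmental genes such as the HOX clusters. ZZZ3 is not itself an acetyltransferase: it is a subunit of the ATAC complex that binds the tail of histone H3. The catalytic subunits of this complex are KAT2A or KAT2B and KAT14, and the complex is known from promoters of ribosomal protein genes. EP300 is not known to recognise a DNA sequence of its own and reaches DNA through transcription factors.

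Examples of DNA at the peaks are shown first, since the 3 lists met different kinds of site. Each is from hg38, read 5′ to 3′, and capitals mark matches to the short motifs searched. The distal site near ID1 and the intron of RIN2 near NAA20 were in the strongest part of all 3 lists, with matches to motifs of liver and stress factors (TGTTTAC for FOXA, TTGCNNAA for C/EBP, TGANTCA for AP-1 and AGATAAG for GATA, on either strand; none of the 16 motifs searched contains another). The promoter of FGA, a fibrinogen chain made by hepatocytes, had peaks of EP300 and KAT6A and none of ZZZ3. The intron of POR was the site of an EP300 peak that no other list matched. All 4 are plus strand sequences.
RIN2 intron, chr20:19964682-19964782: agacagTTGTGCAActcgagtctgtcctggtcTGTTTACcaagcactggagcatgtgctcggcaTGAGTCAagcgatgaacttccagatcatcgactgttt
ID1 distal, chr20:31610809-31610909: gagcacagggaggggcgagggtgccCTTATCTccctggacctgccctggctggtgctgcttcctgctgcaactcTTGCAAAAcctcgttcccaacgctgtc
FGA promoter, chr4:154590827-154590927: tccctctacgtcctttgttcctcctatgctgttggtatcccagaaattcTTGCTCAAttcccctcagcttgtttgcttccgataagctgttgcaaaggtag
POR intron, chr7:75938070-75938170: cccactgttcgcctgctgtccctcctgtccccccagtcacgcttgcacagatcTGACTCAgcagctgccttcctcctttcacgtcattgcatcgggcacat

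Promoters of ribosomal protein genes stood high in the ZZZ3 list, and 2 of them among its 30 strongest promoter peaks held the ETS motif CCGGAAG near the summit, while others, such as that of RPS3 at rank 8, were not among the matches found. Here 30 bases around the motif are shown for these 2, the RPL29 and RPL37 promoters, on the plus strand, where the ZZZ3 peaks had ranks 19 and 37 of 9801.
RPL29, chr3:51995876-51995905: agcgcctagaaCCGGAAGagaaaggggctg
RPL37, chr5:40835203-40835232: gaccagaaagaCCGGAAGagaaggcacttc

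Position relative to genes separated the 3 lists. A promoter peak here has its summit within 500 bp of the canonical transcription start site (TSS) of a protein-coding or lncRNA gene (GENCODE release 44), and a distal peak lies over 5000 bp from every such TSS. Of the 2000 strongest peaks (by the peak signal in the lists), EP300 had 103 promoter peaks, or 5.15% (95% Wilson interval 4.26 to 6.21), KAT6A had 1141, or 57.05% (54.9 to 59.2), and ZZZ3 had 1503, or 75.15% (73.2 to 77.0). The intervals cover counting error of peaks only. Among the 110 lists with 2000 peaks or more, whose shares ran from 3.6% to 77.85%, EP300 stood at place 109 from the top, KAT6A at 61 and ZZZ3 at 4. The median of the other lists was 58.7%, so EP300 and ZZZ3 stood near opposite ends and KAT6A beside the median.

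**Figure D1:**
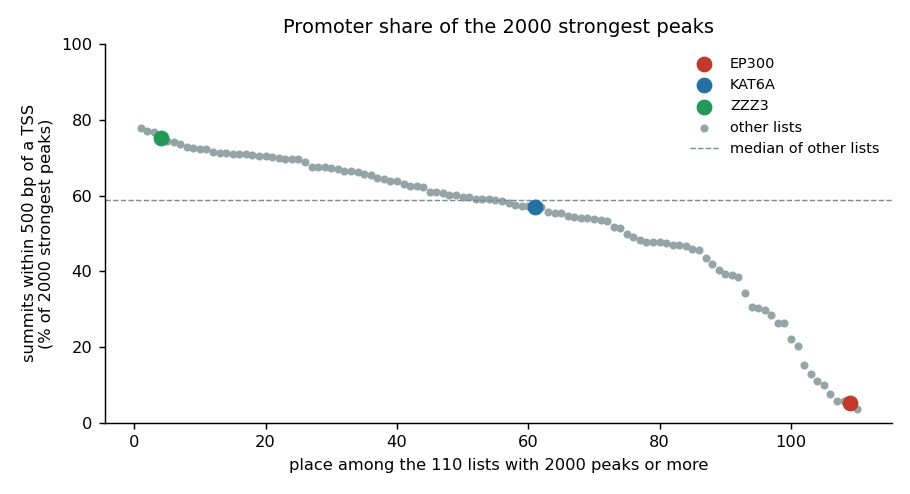
Share of the 2000 strongest peaks with a summit within 500 bp of a TSS (y axis, %) for each of the 110 lists with 2000 peaks or more, ordered from high to low (x axis). EP300 (5.15%), KAT6A (57.05%) and ZZZ3 (75.15%) are the large points, other lists are grey, and the dashed line is the median of the other lists.

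A two-sided exact permutation test over lists, with 1 list set against all others, gave p = 0.0364 for the promoter share of EP300, 48.9 percentage points below the mean of the other lists. It gave p = 0.0727 for ZZZ3, 21.7 points above that mean, and p = 0.909 for KAT6A, 3.48 points above it. After Benjamini-Hochberg adjustment over the 15 tests made, the adjusted p was 0.545, 0.545 and 0.974. With 110 lists the smallest p is 0.0182, and a single test at that value would be adjusted to 0.273, so a single test could not pass alone. None of the 15 tests passed an adjusted threshold of 0.05, and 1 had an unadjusted p below 0.05.

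The distal shares had the reverse order. EP300 had 1562 distal peaks among its 2000 strongest, or 78.1%, KAT6A had 484, or 24.2%, and ZZZ3 had 282, or 14.1%. Among the 500 strongest the contrast was wider, with promoter shares of 2.6% for EP300, 60% for KAT6A and 81.6% for ZZZ3. With each list cut to its 9801 strongest peaks, the length of the ZZZ3 list, promoter shares were 15.3% ± 4.24 (SD over 22 autosomes, as a description of spread along the genome), 45.0% ± 5.18 and 54.4% ± 10.5. No autosome of EP300 reached the lowest autosome of KAT6A or ZZZ3: its shares ran from 8.63% to 22.5%, those of KAT6A from 35.1% to 53.2% and those of ZZZ3 from 35.8% on chromosome 20 to 73.2% on chromosome 13. KAT6A and ZZZ3 overlapped over much of their range.

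Peak strength and position went in opposite directions in EP300 and in the other 2 lists. In bins of 1000 peaks by rank, the promoter share of EP300 was 4.2% in the strongest bin, 10.0% among ranks 2001 to 3000, 18.3% among ranks 5001 to 6000 and 22.97% in the last bin, ranks 9001 to 9801. That of ZZZ3 was 79.4% in the strongest bin, 49.0% among ranks 4001 to 5000, 42.4% among ranks 6001 to 7000 and 50.6% in the last. KAT6A followed ZZZ3, with 59.5% in its strongest bin, a lowest value of 35.5% among ranks 7001 to 8000 and 43.1% in the last. The strongest bin thus had the lowest promoter share in EP300 and the highest in KAT6A and ZZZ3.

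**Figure D2:**
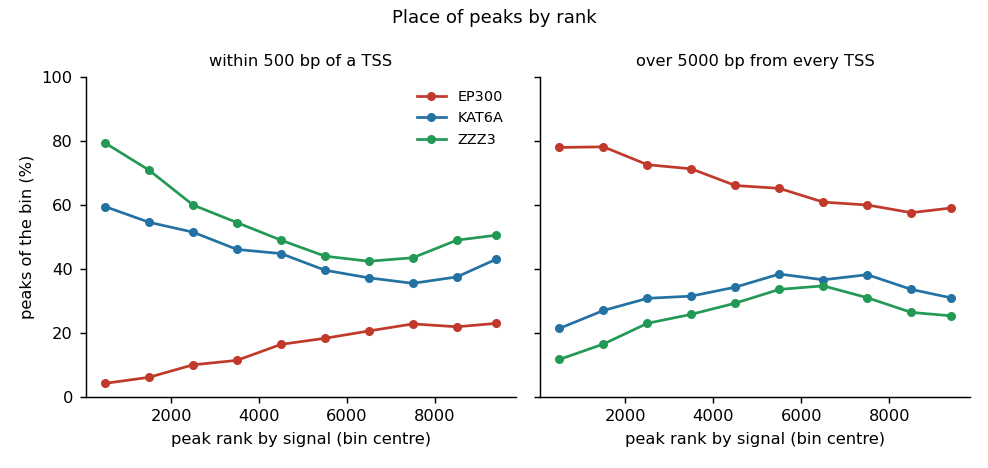
Share of peaks within 500 bp of a TSS (left) and over 5000 bp from every TSS (right) in bins of peak rank by signal (x axis, bins of 1000 peaks, the last of 801), for EP300, KAT6A and ZZZ3. The promoter share of EP300 is 22.97% in the last bin, and those of KAT6A and ZZZ3 are highest, 59.5% and 79.4%, in the first.

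Peaks within 500 bp of a coding TSS also differed in where they sat. The median summit lay 53 bp upstream for EP300 (1215 peaks among 9801), 11 bp upstream for KAT6A (3976 peaks) and 14 bp upstream for ZZZ3 (4838 peaks). Summits downstream of the TSS made up 35.4% of the EP300 peaks (Wilson interval 32.8 to 38.1), 45.3% of those of KAT6A (43.7 to 46.8) and 45.2% of those of ZZZ3 (43.8 to 46.7). EP300 promoter peaks were therefore shifted upstream, and KAT6A peaks were the most tightly placed, with 57.1% within 100 bp of the TSS against 46.3% for EP300 and 48.0% for ZZZ3.

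Base composition set the distal peaks of ZZZ3 apart from the other 2 lists. In the 500 bp around the summit, GC content of distal peaks averaged 46.9% ± 7.73 for EP300, 49.0% ± 8.68 for KAT6A and 55.8% ± 7.64 for ZZZ3 (SD over 6572, 3166 and 2523 peaks). At promoter peaks the averages were closer, 61.8%, 63.7% and 64.6%. Among the 2000 strongest peaks, however, they were 54.5% for the 103 promoter peaks of EP300, 63.9% for KAT6A and 64.3% for ZZZ3. By a usual rule for CpG islands (GC over 50% and observed over expected CpG above 0.6), 1.80% of EP300 distal windows qualified, against 6.63% for KAT6A and 12.4% for ZZZ3. Of promoter windows, 74.4%, 87.6% and 88.4% qualified, and among the 2000 strongest peaks 26.2%, 89.6% and 94.7%. Even the distal part of the ZZZ3 list was thus GC-rich. Whether some of these distal sites are TSSs absent from the annotation used was not tested.

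The strongest EP300 peaks lay far from coding promoters. The highest signal of the list, 534.5, was at a site on chromosome 8 at 6000 bp from the TSS of the lncRNA LINC00824, with MYC, the proto-oncogene, as nearest coding gene at 818895 bp. The peak of rank 2, with a signal of 527.2, lay in the BCL2L1 gene, which encodes an anti-apoptotic protein, 18089 bp from its TSS. The peak of rank 3 was in TTBK1, and that of rank 5, with a signal of 486.3, lay 5535 bp from ID1, a helix-loop-helix inhibitor. None of the 10 strongest EP300 peaks was a promoter peak, and between 20 and 74 other preferred lists had a summit within 50 bp of each. CYP24A1, which degrades vitamin D, was nearest to the site with 20. The strongest EP300 promoter peaks were at TRIB3 (rank 69), a pseudokinase induced by stress, the lncRNA LINC01270, TXNIP (rank 155), a thioredoxin-binding regulator of glucose uptake, FGA (rank 182) and XKR7 (rank 186).

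The strongest KAT6A peaks were of another kind. NPAS4, a neuronal transcription factor, held the peak of rank 1 with a signal of 388.2, 757 bp from the TSS. XKR7 had rank 2 with a signal of 345.8, and INSM2, a neuroendocrine zinc finger gene, rank 3 with a signal of 325.6. These 3 sites were matched by 118, 119 and 118 other preferred lists, so nearly every DAP of the series was listed there. UGDH, an enzyme of glucuronate synthesis (rank 8, 29 other lists), TRIB1, a pseudokinase that promotes degradation of C/EBP proteins (rank 10, 40 other lists), and PRDX1, a peroxiredoxin (rank 21, 43 other lists), were KAT6A promoter peaks at less shared sites. ZZZ3 had NPAS4 at rank 2, INSM2 at 4 and XKR7 at 7, but its peak of rank 1, with a signal of 315.5, was the promoter of SNRPB, a core protein of spliceosomal snRNPs. DDX39B, an RNA helicase of splicing and mRNA export, had rank 3, CSNK1D, the delta form of casein kinase, rank 5 and RPS3, a protein of the small ribosomal subunit, rank 8. Of the 10 strongest peaks, 0 of EP300, 4 of KAT6A and 7 of ZZZ3 were promoter peaks.

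The most shared sites carried letters of the RE1 element, the binding site of the repressor REST, which silences neuronal genes in other cells. This search was chosen after the sequences had been seen. It looked for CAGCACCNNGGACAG on either strand, where N is any base, allowing 2 of the 13 fixed letters to differ, within 100 bp of each summit. Among the 10 strongest peaks, 0 of EP300, 7 of KAT6A and 2 of ZZZ3 had a match, and among the 50 strongest 3 (6%), 24 (48%) and 8 (16%). The other 124 lists had a median of 47% among their 50 strongest, from 0 to 86%. KAT6A was close to the median of the series, and EP300 and ZZZ3 were below it. Shown here are a promoter and a distal site of KAT6A on the plus strand, with the best match in capitals: the HTR5A promoter (rank 6, a serotonin receptor gene) and a site 98739 bp from LHX2 (rank 7), matched by 118 and 117 other preferred lists.
HTR5A promoter, chr7:155070077-155070177: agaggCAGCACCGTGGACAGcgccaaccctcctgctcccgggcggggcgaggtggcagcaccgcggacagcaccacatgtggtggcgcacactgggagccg
LHX2 distal, chr9:124110457-124110557: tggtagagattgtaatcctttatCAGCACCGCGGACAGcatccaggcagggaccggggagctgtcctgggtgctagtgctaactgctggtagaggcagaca

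The RE1 match was most frequent at the sites with most other lists. Among the 9801 strongest peaks, sites matched by 100 or more other preferred lists had it in 37 of 47 cases for EP300 (78.7%), 41 of 54 for KAT6A (75.9%) and 40 of 51 for ZZZ3 (78.4%). At sites matched by at most 9 others it was found in 0.825%, 1.36% and 2.13%. In between the DAPs differed: with 60 to 99 others the match was at 11.2% of EP300 sites (Wilson interval 7.56 to 16.2), 27.2% of KAT6A sites (21.96 to 33.1) and 20.2% of ZZZ3 sites (15.5 to 25.9). The median rank of the sites with 100 or more others was 2101 for EP300, 66.5 for KAT6A and 159 for ZZZ3. All 3 lists held about as many such sites, but they stood near the top of the KAT6A and ZZZ3 lists and further down in that of EP300.

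Sharing with the rest of the series differed by class. The median promoter peak among the 2000 strongest was matched, within 50 bp, by 18.2% of the preferred lists for EP300, 22.5% for KAT6A and 19.8% for ZZZ3, and the median distal peak by 14.9%, 21.7% and 23.6%. Other lists had means of 19.3% at promoter peaks and 17.1% at distal peaks, beside the values of EP300, and none of the 6 exact permutation tests over the 110 lists gave an unadjusted p below 0.49. Sites with peaks of at least 25% of the preferred lists (31 of 121) are called HOT sites, for high-occupancy target. These were regions joined from overlapping windows of 50 bp on either side of the peak midpoints of all preferred lists. A peak was in one if its summit lay there, which it could though fewer lists matched that summit within 50 bp. They held 52.5% of the 2000 strongest EP300 peaks (Wilson interval 50.3 to 54.7), 84.4% of those of KAT6A (82.7 to 85.9) and 92.6% of those of ZZZ3 (91.3 to 93.6). For distal peaks alone the shares were 47.2%, 72.5% and 88.7%, so the order did not rest on promoters only.

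Few strong peaks lacked a partner in the rest of the series. Of the 9801 strongest, 1.23% of EP300, 4.24% of KAT6A and 6.22% of ZZZ3 peaks had no summit of any of the other 126 lists within 50 bp. This cut takes in the whole ZZZ3 list, weakest peaks included. Over full lists the shares were 6.05%, 5.63% and 6.22%, and among the 2000 strongest peaks 0%, 0.2% and 0.25%. The best ranks of such peaks were 2230, 1629 and 248. The EP300 sites among them included the POR intron shown above (rank 4113, signal 98.0), 22965 bp from the TSS of POR, the reductase that feeds electrons to cytochrome P450 enzymes. KAT6A had such peaks near TRIM71 (rank 1629), ETS2 (rank 1899) and STAU1 (rank 1966), and ZZZ3 at the promoters of PLLP (rank 1405) and PCED1A (rank 1542).

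The 3 lists were then compared with each other. Of the 2000 strongest peaks, EP300 and KAT6A shared 387 (Jaccard index 10.7%), EP300 and ZZZ3 shared 127 (3.28%), and KAT6A and ZZZ3 shared 429 (12.0%). The place of sharing differed between pairs. EP300 and KAT6A shared 242 distal peaks, which were 50% of the distal peaks of KAT6A and 15.5% of those of EP300. They also shared 38 promoter peaks, 3.33% of those of KAT6A and 36.9% of those of EP300. KAT6A and ZZZ3 shared 304 promoter peaks, 26.6% of those of KAT6A and 20.2% of those of ZZZ3. Their 71 shared distal peaks were 14.7% of those of KAT6A and 25.2% of those of ZZZ3. By count, peaks shared by KAT6A were thus mostly distal with EP300 and mostly at promoters with ZZZ3. These counts are bounded by the make-up of the lists, since EP300 had 103 promoter peaks and ZZZ3 282 distal ones. As a share of its own peaks, EP300 shared promoter peaks with KAT6A more often than distal ones. With 9801 peaks each, EP300 and KAT6A shared 2541 peaks, 1361 of them distal (43.0% of the distal peaks of KAT6A), while KAT6A and ZZZ3 shared 1774, of which 1165 were promoter peaks.

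Joining the summits of the 9801 strongest peaks of each list within 50 bp gave 24537 sites. Of these, 6774 were of EP300 alone, 73.2% of them distal, 6118 of KAT6A alone, 47.4% at promoters, and 7518 of ZZZ3 alone, 53.1% at promoters. The 1844 sites of EP300 and KAT6A without ZZZ3 were 61.2% distal, and the 1100 sites of KAT6A and ZZZ3 without EP300 were 75.7% at promoters. All 3 proteins were listed at 739 sites, 374 at promoters and 246 distal, and 94.0% of these were HOT sites. That share was 25.01% for EP300 alone, 54.2% for KAT6A alone and 56.7% for ZZZ3 alone. It was 52.5% for EP300 with KAT6A, 76.1% for EP300 with ZZZ3 and 88.9% for KAT6A with ZZZ3. A site counted as HOT if any of its summits did, so sites with more summits had more occasions to count.

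**Figure D3:**
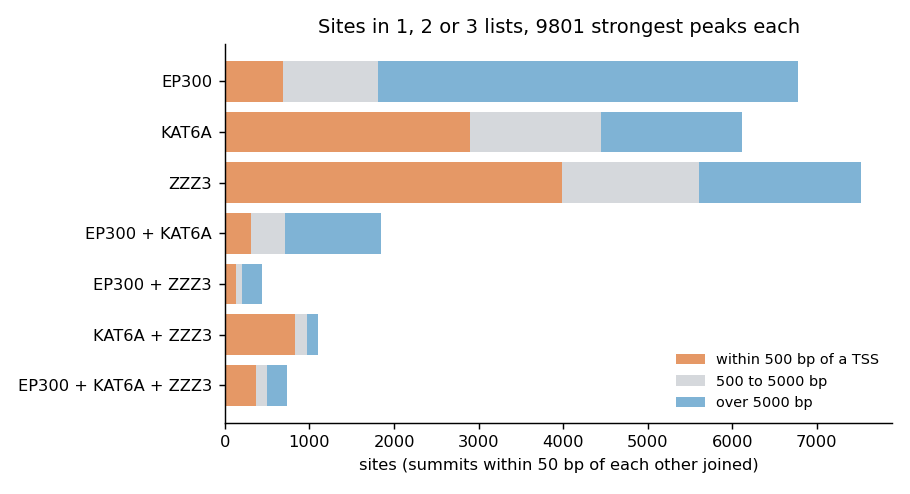
Number of sites (x axis) found in 1, 2 or all 3 of the lists of EP300, KAT6A and ZZZ3, each cut to its 9801 strongest peaks, coloured by distance from the nearest TSS. Sites of EP300 alone and of EP300 with KAT6A are mostly distal (73.2% and 61.2%), and those of KAT6A with ZZZ3 are mostly at promoters (75.7%).

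Some distal sites and promoters stood high in all 3 lists. The RIN2 intron shown above had ranks 276 in EP300, 249 in KAT6A and 122 in ZZZ3, and the ID1 site ranks 5, 292 and 43. BHLHE40, a repressor tied to the circadian clock and hypoxia, had a shared site at 7578 bp (ranks 354, 74 and 290), and ROCK2, a kinase of the actin cytoskeleton, one at 9906 bp (ranks 27, 237 and 647). Shared promoters included STAT3, the factor that turns on acute phase genes (ranks 450, 108 and 1146), AHSG, the serum protein fetuin-A (539, 421 and 1167), TXNIP (155, 304 and 1429) and APOB, the protein of LDL (1572, 569 and 487). RANBP3, a factor of nuclear export, had rank 15 in ZZZ3 but 921 in EP300 and 442 in KAT6A.

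Against the rest of the series, the lists closest to EP300 were those of NCOA2 and MED12. NCOA2, a nuclear receptor coactivator, shared 1391 of the 2000 strongest peaks with EP300 (Jaccard index 53.3%, place 1), and MED12, a subunit of the Mediator kinase module, shared 1057 (35.9%). NCOA2 had the same input library as EP300 and MED12 another. The next lists, SALL1, PEG3 and ZNF544, were at 17.96%, 17.8% and 16.8%, and KAT6A was at place 11. Other coactivators were further off: NCOA1 was at 12.3%, AFF1 at 6.92% and MED13L, also of the Mediator kinase module, at 1.55%. The median over the lists was 2.54%. The exact permutation test gave p = 0.202 for KAT6A among the lists set against EP300 (adjusted p = 0.734) and p = 0.862 for ZZZ3 at place 47 (adjusted p = 0.974).

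For KAT6A the 4 closest lists, ZNF544 (19.7%), TSC22D2 (16.9%), ZCCHC11 (14.8%) and ZNF140 (14.4%), all had the input library of KAT6A, as had 6 of the 10 closest. The 15 lists with that input had a median Jaccard index with KAT6A of 12.0%, and the 94 with another input 7.50%. ZZZ3 was at place 15 for KAT6A (p = 0.294, adjusted p = 0.734) and EP300 at place 25 (p = 0.459, adjusted p = 0.909), both by the exact permutation test over lists. For ZZZ3 the closest lists were POU2F1 (15.9%), GLYR1 (14.5%), a nucleosome-binding protein, and E2F8 (13.3%), with KAT6A at place 13 (p = 0.257, adjusted p = 0.734) and EP300 at place 100 (p = 0.183, adjusted p = 0.734). For EP300, lists with its own input had a median of 5.74% and those with another 2.37%. Among lists with its own input, KAT6A was at place 3 for EP300, and EP300 at place 10 of 15 for KAT6A. With 9801 peaks in each of 58 lists the order changed. The closest lists to KAT6A were then ZNF544 (18.5%), SALL1 (16.4%), E2F8 (14.99%) and POU2F1 (14.95%), of which only ZNF544 had the same input, and EP300 was at place 5 (14.9%) and ZZZ3 at place 25 (9.95%). The part of the input library, and of any batch that goes with it, in these overlaps was not tested further.

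Target genes were read as coding genes with a peak at the promoter. Of 20007 coding gene symbols, the 9801 strongest peaks marked 1373 promoters for EP300 (6.86%), 4119 for KAT6A (20.6%) and 4530 for ZZZ3 (22.6%). As nearest coding genes of distal peaks, 3415 were marked for EP300 (17.1%), 1962 for KAT6A (9.81%) and 1573 for ZZZ3 (7.86%). Most promoters of EP300 were also in the other lists: 1031 of them in that of KAT6A (75.1% of those of EP300, 25.03% of those of KAT6A) and 965 in that of ZZZ3 (70.3% and 21.3%). KAT6A and ZZZ3 had 2383 promoters in common (57.9% and 52.6%), and 773 were in all 3. The full EP300 list of 17599 peaks marked 3081 promoters. Lists of genes of this tissue and of these complexes, chosen with earlier results known, are given as counts beside the shares of all coding genes, with no test.

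Hepatocyte genes were marked by EP300 and KAT6A more than by ZZZ3. Of 30, promoter peaks were at 15 for EP300 (50%, against 6.86% of all coding genes), 17 for KAT6A (56.7%, against 20.6%) and 8 for ZZZ3 (26.7%, against 22.6%). The 56 other lists with 9801 peaks or more had a median of 36.7%, from 10% to 66.7%, and EP300 was at place 6, KAT6A at 2 and ZZZ3 at 41. FGA had a signal of 301.6 in EP300 (rank 182) and 86.2 in KAT6A (rank 367) and no peak in ZZZ3. AMBP, the precursor of alpha-1-microglobulin, had rank 89 in KAT6A and APOA2, an HDL apolipoprotein, rank 91. ALB, the albumin gene, had a promoter peak in KAT6A only (rank 1006), with 3 distal peaks of EP300 and 7 of KAT6A and none of ZZZ3 assigned to it. FOXA2, a pioneer factor of liver, had rank 217 at its promoter in KAT6A, with 8 distal peaks of EP300, 9 of KAT6A and 6 of ZZZ3 assigned to it. FGB, the neighbour of FGA, had no promoter peak and no assigned distal peak in any of the 3. Distal peaks were nearest to 20 hepatocyte genes for EP300, 15 for KAT6A and 8 for ZZZ3 (66.7%, 50% and 26.7%, against 17.1%, 9.81% and 7.86% of all coding genes).

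The hepatocyte values also check the labelled cell line. None of 24 genes of other tissues had a promoter peak in any of the 3 lists. The 56 other lists had a median of 0 for these genes and a maximum of 8.33%. Distal peaks were nearest to 3, 2 and 2 of the 24 (12.5%, 8.33% and 8.33%). Acute phase and complement genes had promoter peaks at 7 of 21 for EP300 (33.3%), 6 for KAT6A (28.6%) and 2 for ZZZ3 (9.52%), against 6.86%, 20.6% and 22.6% of all coding genes. As nearest genes of distal peaks they were 3, 2 and 2 of 21 (14.3%, 9.52% and 9.52%), beside 17.1%, 9.81% and 7.86% of all coding genes. C3, the central complement component, had ranks 1247 in EP300 and 711 in KAT6A, and CFB, complement factor B, ranks 1510, 9503 and 2021. C9 and CRP had none.

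Ribosomal protein genes were marked most in the ZZZ3 list, and the order of the 3 lists was that of all coding promoters (6.86%, 20.6% and 22.6%). Of 79 genes of cytosolic ribosomal proteins, promoter peaks were at 23 for EP300 (29.1%), 65 for KAT6A (82.3%) and 73 for ZZZ3 (92.4%). The other 56 lists had a median of 60.8%, from 3.8% to 83.5%, so the ZZZ3 value was above each of them. The full EP300 list marked 43 of the 79. With only the 2000 strongest peaks, which marked 0.305%, 5.91% and 8.12% of all coding promoters, the counts were 0 for EP300, 43 for KAT6A (54.4%, Wilson interval 43.5 to 65.0) and 59 for ZZZ3 (74.7%, 64.1 to 83.0), while the 107 other lists had a median of 20.3% and a maximum of 40.5%. KAT6A and ZZZ3 were both above all 107. These promoters also stood high within the ZZZ3 list: 21 of these genes were among its 100 strongest peaks, and the median rank of the bound ones was 414 for ZZZ3, 1396 for KAT6A and 6440 for EP300. Over all promoter peaks of each list the median rank was 4036 for ZZZ3, 4190.5 for KAT6A and 6433 for EP300.

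RPS3 had rank 8 in ZZZ3 with a signal of 203.5, rank 764 in KAT6A and rank 10993 in EP300. RPL37A and RPL27, both of the large subunit, had ranks 12 and 13 in ZZZ3. RPS7 was the strongest of these genes in EP300 (rank 2036) and in KAT6A (rank 23), and had rank 25 in ZZZ3. RPS3 was thus outside the 9801 strongest peaks of EP300, and the RPS7 peaks were strong in both KAT6A and ZZZ3.

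**Figure D4:**
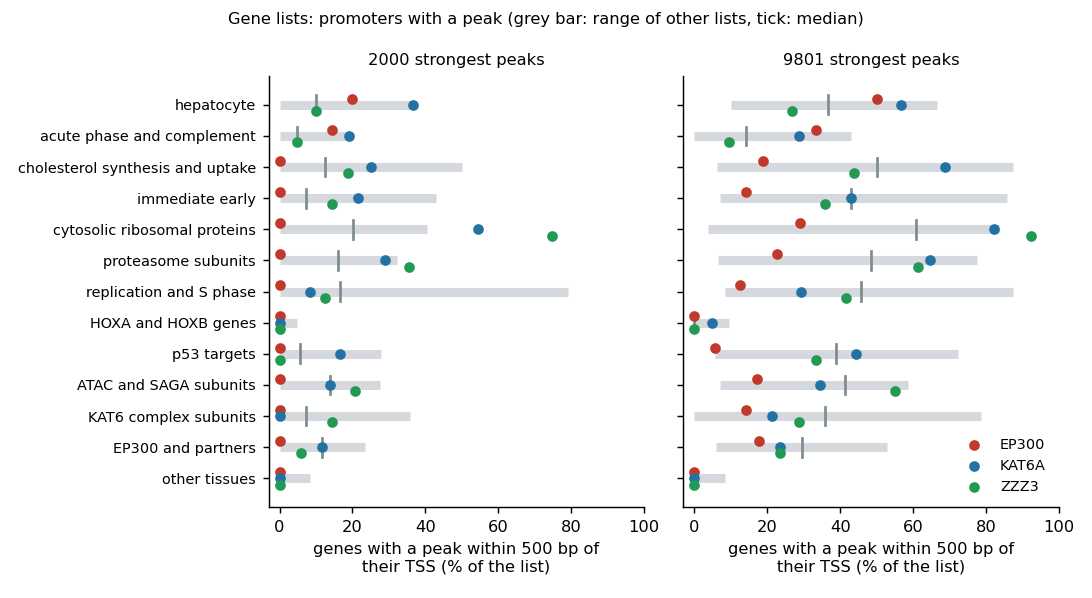
Share of each gene list (x axis, %) with a peak within 500 bp of the TSS, for EP300, KAT6A and ZZZ3, from the 2000 (left) and 9801 (right) strongest peaks, with the range and median of the other lists that are long enough. Cytosolic ribosomal proteins reach 54.4% for KAT6A and 74.7% for ZZZ3 on the left, beyond the 40.5% of the highest other list, and hepatocyte genes are higher for EP300 and KAT6A than for ZZZ3.

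Proteasome subunit genes lay within the range of other lists at 9801 peaks. With the 2000 strongest peaks, ZZZ3 marked 11 of 31 (35.5%), above the 32.3% of the highest of 107 other lists. Its Wilson interval included that value. KAT6A marked 9 of 31 at that cut, within the range of the other lists, and EP300 marked 0. The values that follow are from 9801 peaks. The other gene lists are likewise to be read beside the 6.86%, 20.6% and 22.6% of all coding promoters marked by EP300, KAT6A and ZZZ3. They are also to be read beside the medians of the 56 other lists. Those were 48.4% for proteasome, 50% for cholesterol, 42.9% for immediate early and 38.9% for p53 genes. For immediate early genes and for p53 targets KAT6A was at place 22, and EP300 and ZZZ3 were below the median. Proteasome promoter peaks were at 7 of 31 for EP300 (22.6%), 20 for KAT6A (64.5%) and 19 for ZZZ3 (61.3%), with PSMD3, a lid subunit of the regulatory particle, at ranks 3158, 150 and 311. Cholesterol synthesis and uptake genes had peaks at 3 of 16, 11 and 7 promoters (18.75%, 68.75% and 43.75%). HMGCS1, the synthase at the entry to the pathway, had rank 488 in KAT6A, FDFT1, squalene synthase, rank 513, and CYP51A1, a sterol demethylase, rank 984 in ZZZ3. Immediate early genes had them at 2 of 14, 6 and 5 (14.3%, 42.9% and 35.7%), with IER3 at rank 194 in KAT6A. For p53 targets the counts were 1 of 18, 8 and 6 (5.56%, 44.4% and 33.3%), and GADD45A, a stress gene of DNA damage, had rank 187 in KAT6A. Replication genes had 3 of 24, 7 and 10 (12.5%, 29.2% and 41.7%), below the median of 45.8% of the other lists in all 3 cases.

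Genes of the complexes and of related proteins were also examined. Of 29 ATAC and SAGA subunits, promoter peaks were at 5 for EP300 (17.2%), 10 for KAT6A (34.5%) and 16 for ZZZ3 (55.2%), and the other 56 lists had a median of 41.4%. KAT14, the acetyltransferase of ATAC, had rank 326 in ZZZ3 and SUPT7L, a core SAGA subunit, rank 476, and DR1, which ATAC shares with the repressor NC2, had rank 127 in KAT6A. A list of 14 genes held subunits of KAT6 complexes together with related genes (KAT5, KAT7, KAT8, JADE1, JADE2 and JADE3). In it 2, 3 and 4 genes had promoter peaks (14.3%, 21.4% and 28.6%). They were KAT5 and KAT8 for EP300, KAT6A, KAT7 and JADE1 for KAT6A, and KAT5, KAT7, KAT8 and BRPF1 for ZZZ3. Of 17 genes of EP300 and its partners, 3, 4 and 4 had them (17.6%, 23.5% and 23.5%). For KAT6A and ZZZ3 the shares of both gene lists lay near the 20.6% and 22.6% of all coding promoters. All 3 DAPs were below the medians of the other 56 lists, 35.7% and 29.4%. CITED2, which binds EP300 and competes with HIF1A for it, had rank 90 in KAT6A and 2969 in EP300. HOXA and HOXB genes, textbook targets of KAT6A in blood cells, had no promoter peak of EP300 or ZZZ3 and 1 of KAT6A among 21, at HOXA4 (rank 7100), and the other lists had a median of 0.

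At their own genes the 3 proteins had few peaks. The gene of EP300 had none in any of the 3 lists. The promoter of ZZZ3 had a ZZZ3 peak 16 bp from the TSS (rank 2005), with peaks of KAT6A (rank 5455) and EP300 (rank 16551) nearby. The promoter of KAT6A had a KAT6A peak 254 bp from the TSS (rank 3775) and an EP300 peak (rank 11213). Further KAT6A peaks lay in this gene 1162 and 955 bp from the TSS (ranks 8495 and 9904), matched by 0 and 1 other preferred lists. The KAT6A gene also held an EP300 peak 190 bp from its 3′ end (rank 4614).

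The genes with most distal peaks differed as well. FN1, fibronectin, was nearest to 16 distal peaks of EP300, 3 of KAT6A and 1 of ZZZ3, and MYC to 15, 9 and 4. IRS1, an adaptor of insulin signalling, had 14, 6 and 0. TRIM71, a regulator of RNA in stem cells, had 2, 10 and 0. PCK1, the key enzyme of gluconeogenesis, had 2, 2 and 8. ZFP36L2, which destabilises mRNA, with 15, 12 and 15, and PTPN1, a phosphatase of insulin signalling, with 14, 13 and 12, were high for all 3.

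Motif matches under distal peaks differed between the 3 lists. In the windows of 100 bp on either side of distal summits among the 9801 strongest, the FOXA letters (TGTTTAC) were in 14.4% of EP300 windows (Wilson interval 13.6 to 15.3), 11.4% of KAT6A windows and 5.95% of ZZZ3 windows, against a median of 5.50% over 123 other lists, shorter ones included. HNF4 (CAAAGTCCA) was in 3.45%, 2.65% and 1.98%, median 1.43%, and the highest other list, at 3.43%, lay within the Wilson interval of the EP300 share (3.04 to 3.92). Among the 2000 strongest peaks EP300 was at place 13, with 3.27% against a highest other list of 4.73%. The GATA letters given above were in 6.97%, 3.66% and 2.38% (median 2.42%), and TEAD (GGAATGT) in 7.87%, 4.90% and 3.53% (median 3.57%). EP300 was at place 2 for both, and ZZZ3 beside the median.

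C/EBP letters (TTGCNNAA) were in 20.6% of EP300 distal windows, 17.7% of those of KAT6A and 9.27% of those of ZZZ3 (median 10.2%), and AP-1 (TGANTCA) in 20.3%, 13.8% and 9.79% (median 7.41%). SP/KLF boxes (GGGCGGG) had the reverse order, 3.26%, 4.90% and 9.71% (median 8.06%). These letters differ in base content, as do the windows, and the motif shares were not corrected for GC. Distal sites of EP300 with KAT6A and without ZZZ3 had C/EBP letters in 28.0% of 1129 windows, against 19.5% of 4960 for EP300 alone and 12.5% of 1665 for KAT6A alone.

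At promoter peaks the ETS letters (CCGGAAG) were in 15.9% of EP300 windows, 18.2% of KAT6A windows and 18.1% of ZZZ3 windows, with a median of 12.1% over 122 other lists. They were in 25.2% of the 833 promoter sites of KAT6A and ZZZ3 without EP300, and in 25.4% of the 374 promoter sites of all 3, against 15.4% for KAT6A alone, 15.9% for ZZZ3 alone and 11.4% for EP300 alone. The NRF1 letters (GCGCATGC) were in 3.26%, 2.77% and 3.71% (median 2.67%). Promoter peaks of EP300 held AP-1 letters in 6.86%, against 2.84% for KAT6A and 2.21% for ZZZ3. E-boxes (CACGTG) were in 13.9% against 7.83% and 9.10%, but the EP300 share was 8.74% beside 9.03% for KAT6A among the 2000 strongest peaks, and at distal peaks it was the lowest of the 3 (5.45%, 5.97% and 8.92%). A match is a description of the letters and not evidence of a bound factor.

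**Figure D5:**
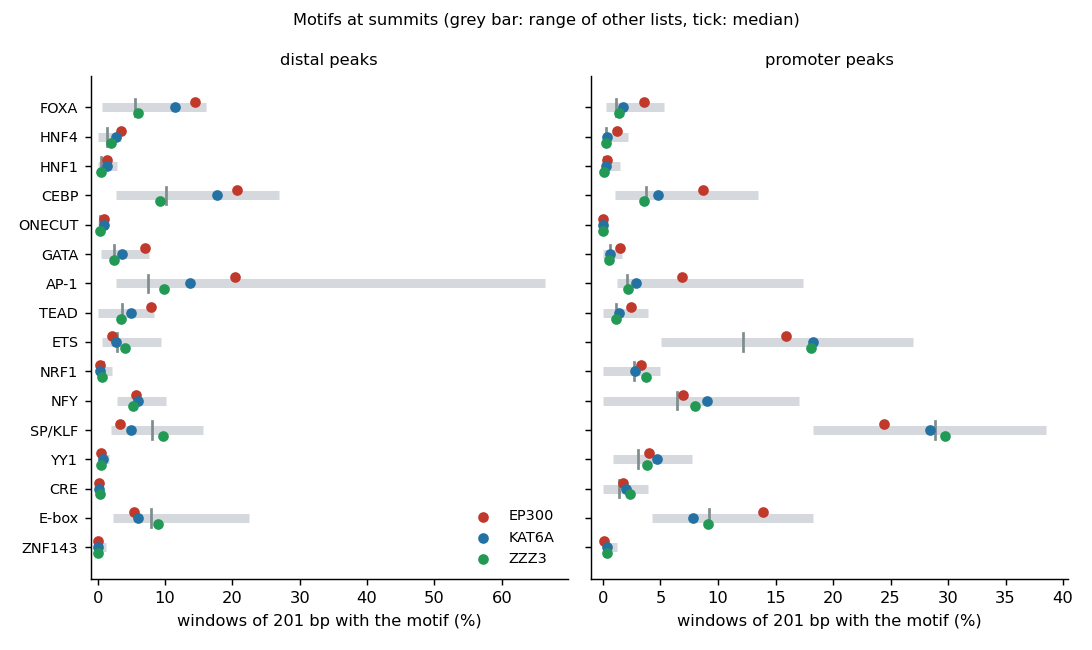
Share of windows reaching 100 bp on either side of the summit (x axis, %) at distal (left) and promoter (right) summits that hold each motif on either strand, for EP300, KAT6A and ZZZ3 among the 9801 strongest peaks, with the range and median of other lists. At distal peaks EP300 is highest and ZZZ3 lowest of the 3 for FOXA (14.4% and 5.95%), and SP/KLF boxes have the opposite order (3.26% and 9.71%).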

How the data were processed

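The members and all gene and motif lists were chosen with earlier results of these data known. Peaks were called by the authors with the ENCODE ChIP-seq pipeline (optimal peak calls) on hg38; aligner and caller versions: not given in the sources used here. The deposited narrowPeak lists give a peak signal of the pull-down against its input, which is not scaled between lists and served here only to rank peaks, and a score of at most 1000, deposited by the authors, used in 1 alternative. Read depth per sample is unknown, and the precision of a share is set by the number of peaks. No peak lay off the main chromosomes.

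Summits were set against the canonical TSSs of GENCODE release 44 (20033 coding and 18866 lncRNA genes, 38899 in all), of which 20007 coding symbols were unique. Between lists, summits within 50 bp were paired, each used once. Lists were cut to 2000 or 9801 strongest peaks, since their lengths differ. Each value was tested against all lists that were long enough by a two-sided exact permutation test over lists, done by direct enumeration of the single list's place, with Benjamini-Hochberg adjustment over 15 tests; the other values are descriptions with 95% Wilson intervals. The named sites were the 10 strongest peaks of each list, the 5 strongest unmatched ones, the 10 best ranked distal and promoter sites of all 3 lists, and the 3 strongest promoters of each gene list, with up to 3 genes without a peak. The tables of strongest promoter and distal peaks, of genes with most distal peaks, the values of ALB, the printed ETS windows (of the 30 strongest promoter peaks) and the RE1 search were added after the data had been seen. The code was tested on simulated lists with known shares. Python 3.11.15, numpy 2.4.6, pandas 2.3.3, scipy 1.17.1, pysam 0.24.0 and matplotlib 3.10.9 were used. The alternatives are given in the closing section. The 24 input samples have no peak list.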

Additional observations from a re-analysis of the deposited data

How the results depend on the processing

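None of the 15 tests passed an adjusted 0.05 in any of 112 alternative fits (lowest adjusted p 0.237), and 9 of those fits had an unadjusted p below 0.05. The difference from the other lists changed sign in 9 fits, with p from 0.0941 to 1. For the share of preferred lists per promoter peak these were ZZZ3 with 1000 strongest peaks (23.1%), with 5000 (14.9%) and with 2000 peaks of each counted list (6.61%), EP300 with 5000 (22.3%), and KAT6A within its own input library (22.5%). The promoter share of KAT6A changed sign over all peaks (44.5%), and the overlap of EP300 with KAT6A did within the shared input library (10.7%), with matching at 200 bp (12.4%) and for promoter peaks only (3.15%). The cause was not tested. Full lists marked 3081 coding promoters for EP300. Sites of all 3 lists numbered 661 at promoters and 413 distal with matching at 200 bp, and 15 and 43 with 2000 peaks each, which has fewer peaks. For gene lists and motifs, 220 alternative values stayed within the margin set and 89 moved, most of them with 2000 peaks each. Full lists gave 43 ribosomal protein promoters for EP300. An alternative added after seeing the data left out chromosomes 2, 6, 14, 16, 17 and 20, and promoter shares were then 5.80%, 55.15% and 73.2% for EP300, KAT6A and ZZZ3. EP300 had under 50 promoter peaks among its 1000 strongest and gave no value there, and overlaps with ZZZ3 within a shared input library could not be made. No paired analysis was possible because each DAP has 1 list and no replicate.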

Other observations

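Chromosomes 2, 6, 14, 16, 17 and 20, which were singled out after the peaks had been seen, hold 24.5% of the genome's length. They held 43.5% of the 2000 strongest peaks of EP300, 49.5% of those of KAT6A and 52.7% of those of ZZZ3, against a median of 56.8% over 107 other lists, from 36.05% to 68.05%. Over all peaks, the promoter share inside and outside these chromosomes was 22.1% and 19.96% for EP300, 39.7% and 48.5% for KAT6A, and 46.1% and 62.2% for ZZZ3. The strongest distal ZZZ3 peak, 35103 bp from ZNF740, had rank 9 and was matched by 9 other preferred lists, few beside the 117 to 119 at the next 3 distal sites, near MVB12B, ZFPM1 and UNC5A.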
